A study of Drosophila melanogaster with 53 samples.

Results

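Whole males of Drosophila melanogaster sampled 10 days after exposure to 5000 R were compared with males sampled on the same day after 1000 R. The roentgen (R) is a unit of exposure to X-rays and gamma rays. The comparison takes 6 of the 53 polyadenylated RNA libraries of the study, 3 at 5000 R and 3 at 1000 R, chosen by dose and day from the column headings of the deposited table. The males had been irradiated as adults, 2 days after eclosion. The 3 libraries of unirradiated males from day 10 stand beside them, and the same doses were also sampled at days 2 and 20. Neither strain, nor radiation source, nor the number of flies behind a library is given in the sources used here, and nothing there says that the libraries of a group came from separate cultures. The p-values below therefore measure a spread between libraries, which may be technical. In the main fit that spread is pooled over all 18 groups of the series, not taken from these 6 libraries alone. By its title, the study asks whether males respond to radiation above a threshold dose, and 1000 R and 5000 R are neighbouring doses on its scale.

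Ionizing radiation breaks DNA. In fly cells the transcription factor p53 then induces genes of cell death, such as hid and rpr, together with genes of DNA repair. Most tissues of an adult fly no longer divide, and dividing cells lie mainly in the germ line and the gut. Transcripts of dividing and of resting tissues are measured together in a whole fly, so fewer cells of a type and less RNA per cell cannot be told apart.

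The 6 libraries held 15.4 to 24.7 M recovered reads, and 12837 to 13720 genes had a value above 0. Markers of a whole male were present in each of them. Among these were Mst98Ca of sperm (13595 to 19750 normalized counts), ninaE of photoreceptors (56984 to 68374) and the male dosage compensation RNA lncRNA:roX1 (4460 to 10454). The yolk protein gene Yp1, a female marker, lay between 70.8 and 299, and osk, an oocyte gene, at 3.75 or below. Of 9 libraries of the series that stand apart by genes detected, Yp1 or histone level, none belongs to these groups or to the day 10 controls, but they enter the pooled estimate of spread.

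A single gene, Achl, passed the test. Achl (Achilles, FBgn0033936, on chromosome arm 2R) has been described in flies as a clock-controlled gene of neurons whose loss raises immune gene expression. It stood at 153, 124 and 143 normalized counts after 5000 R, against 505, 486 and 502 after 1000 R. All 3 libraries at 5000 R lay far below all 3 at 1000 R, and libraries of a dose were close to each other. The means were 140 ± 14.7 at 5000 R and 498 ± 10.3 at 1000 R (SD, n = 3 each). The fall was -1.83 ± 0.27 on the log2 scale (SE; limma, Benjamini-Hochberg adjusted p = 0.000435 over 12475 genes). That is 0.00802% of the genes tested. No gene passed in the other direction. At an unadjusted p under 0.05 there were 750 genes (6.01%), 180 higher (1.44%) and 570 lower (4.57%). Without the libraries of the series that stand apart, 1854 genes had an unadjusted p under 0.05 and 5 passed. The pooled spread thus bears on these counts. On the recovered reads of all libraries edgeR, like the main fit, called Achl alone. DESeq2 called 15 genes, 4 higher and 11 lower, out of the 1107 to which it gave an adjusted p. Achl was not among those 1107, and its unadjusted p in DESeq2 was 4.79e-12.

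Unirradiated males stood between both doses for Achl, at 288, 343 and 268 normalized counts. Against these controls the log2 difference was -1.09 ± 0.27 at 5000 R (limma, adjusted p = 0.279) and 0.74 ± 0.27 at 1000 R (adjusted p = 1), so neither dose passed by itself. The contrast between the doses thus spans a level below controls at 5000 R and one above controls at 1000 R. Both of these differences share the controls.

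Achl had its lowest group mean at 5000 R at the other days as well. At day 2 its levels were 290, 260 and 190 normalized counts after 5000 R, against 664, 604 and 586 after 1000 R, a fall of -1.34 ± 0.27 (limma, adjusted p = 0.028). At day 20 they were 168, 135 and 190 after 5000 R, against 362, 266 and 377 after 1000 R, where the difference of -1.02 ± 0.27 missed the threshold (adjusted p = 0.585). The groups did not overlap at either day. The difference at day 10 was not shown to depart from that at day 2 (by -0.49 ± 0.38; limma, adjusted p = 1) or from that at day 20 (by -0.81 ± 0.38; adjusted p = 1). The order of doses is not a steady one. At day 10 the group means ran from 300 in controls through 385 at 10 R, 498 at 1000 R, 140 at 5000 R and 228 at 10000 R to 369 at 20000 R. The mean at 20000 R includes library a, at 485, which is among the libraries that stand apart by its histone level, and libraries b and c were at 307 and 314. Other means include such libraries too. At 10 R these are a (279), by Yp1, and c (483), by genes detected, and at 10000 R library c (229), by Yp1. At day 20, library c of 5000 R (190) stands apart by genes detected.

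**Figure D1:**
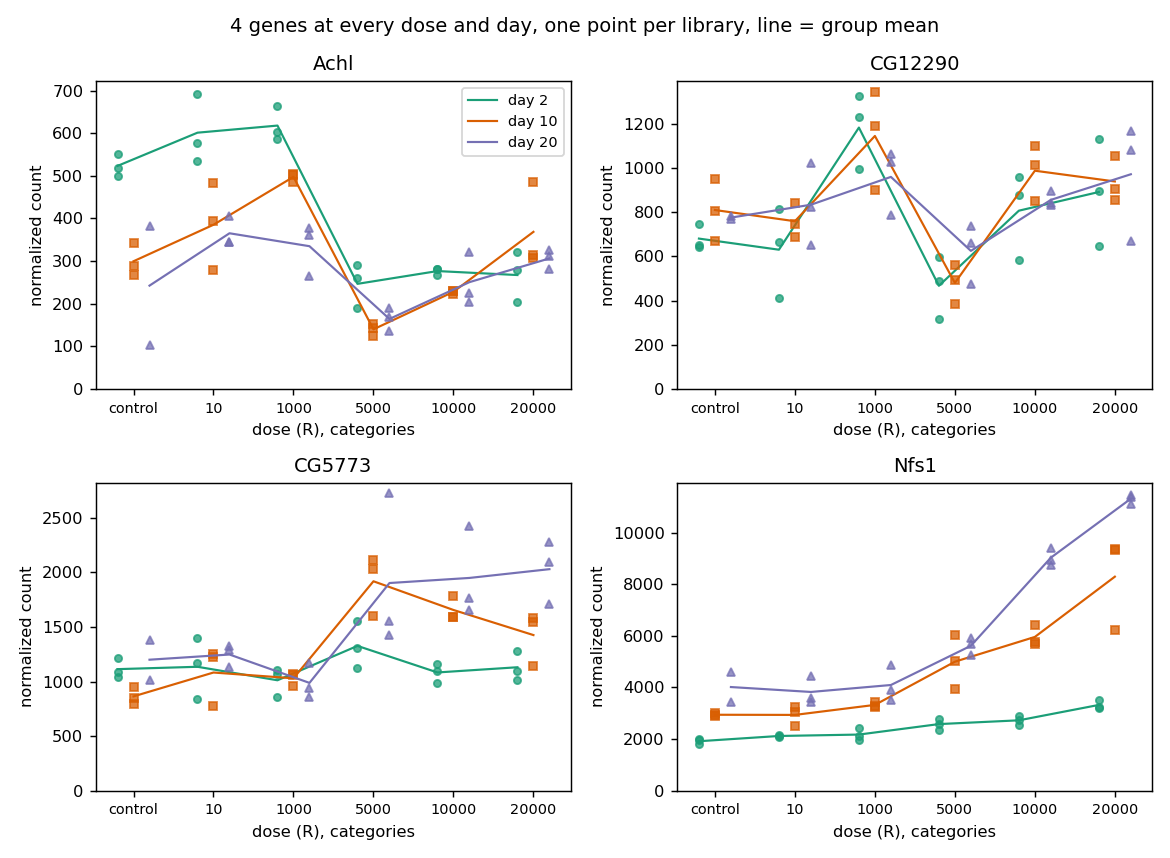
Normalized counts of Achl, CG12290, CG5773 and Nfs1 (vertical axes, from 0) in controls and at 5 doses in roentgens (horizontal axes, as categories), with 1 point per library and lines through the group means of days 2, 10 and 20. Achl and CG12290 are lowest at 5000 R at day 10, with means of 140 and 481, while CG5773 and Nfs1 are higher at 5000 R than at 1000 R.

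The 20 genes with the smallest p, 10 in each direction, show how the other differences were built. Apart from Achl none passed the threshold, so their values are given as measured. CG12290 came closest, at 563, 383 and 495 normalized counts after 5000 R, against 902, 1192 and 1343 after 1000 R. The doses did not overlap. Controls, at 672, 951 and 808, lay above the 5000 R libraries, and 1 of them lay within the 1000 R range. Its log2 difference was -1.25 ± 0.25 (limma, adjusted p = 0.0633). It passed with the libraries of day 10 alone (adjusted p = 0.0379), without the libraries that stand apart (0.0316), without 1000 R library a (0.0489) and without 5000 R library a (0.00807). It did not pass in edgeR, with the 6 libraries alone, under quantile normalization or after the length correction described below (-1.04; limma, adjusted p = 0.419). At day 2 the same contrast was -1.38 ± 0.25 and passed (adjusted p = 0.0188).

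The lower genes that followed by p were ImpL2, sws, didum, slim, Toll-7, hry, chrb and CG18170. ImpL2, a secreted antagonist that binds insulin-like peptides, had 1931, 1231 and 1428 normalized counts at 5000 R, against 2770, 2637 and 2825 at 1000 R. Its difference was -0.87 ± 0.20 (limma, adjusted p = 0.404), and controls, at 2491, 2533 and 2151, lay between the doses. The transcriptional repressor gene hry (hairy) had 1888, 1344 and 1822 at 5000 R, against 3034, 3817 and 3158 at 1000 R, a difference of -0.99 ± 0.25 (adjusted p = 0.404). It passed without the libraries that stand apart (adjusted p = 0.0316) and without 5000 R library a (0.0402). It did not pass in edgeR or after length correction (-0.97). Controls of hry, at 2064, 3806 and 2916, lay above the 5000 R libraries and overlapped those at 1000 R.

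For chrb the values showed a split within the 5000 R group. Its product is the fly homolog of REDD1, an inhibitor of TOR signalling. The levels were 1778, 734 and 747 normalized counts at 5000 R, against 1919, 2121 and 2046 at 1000 R, and 1774, 1732 and 1777 in controls. Library a of 5000 R was thus at the control level and libraries b and c were far below it. The difference was -1.03 ± 0.26 (limma, adjusted p = 0.404), and -1.45 without library a (adjusted p = 0.00238). The split was not limited to day 10. At 5000 R the first column of chrb was also the highest at day 2 (1931, 1069 and 966) and at day 20 (1808, 1183 and 1208). Toll-7, a receptor of the Toll family, had the same shape as chrb at day 10, with 632, 315 and 319 at 5000 R, against 712, 614 and 668 at 1000 R. For sws, the fly homolog of neuropathy target esterase, the levels were 7334, 5544 and 4406 at 5000 R, against 7514, 8357 and 8426 at 1000 R. The myosin V gene didum had 7022, 4392 and 4502 at 5000 R, against 7704, 7251 and 8087 at 1000 R. The remaining lower genes were slim (-0.38 ± 0.10) and CG18170 (-0.65 ± 0.17). CG18170 and CG33791 have the same values in all libraries, so the table does not separate these 2 genes, and in all 565 rows repeat another row, in 179 sets.

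Among the 10 genes on the higher side, CG5773 led with 1604, 2036 and 2118 normalized counts at 5000 R, against 960, 1056 and 1074 at 1000 R. The doses did not overlap, and controls at 793, 848 and 952 were below both. The difference was 0.89 ± 0.20 (limma, adjusted p = 0.401). Nfs1, the desulfurase whose sulfur goes into iron-sulfur clusters, had 3925, 5032 and 6041 at 5000 R, against 3284, 3452 and 3239 at 1000 R, a difference of 0.57 ± 0.14 (adjusted p = 0.404). Its controls were at 2922, 2899 and 3008. CG5773 and Nfs1 passed against 1000 R without the libraries that stand apart (adjusted p = 0.0074 and 0.0353) and without 5000 R library a (0.0134 and 0.00705). Nfs1 also passed in DESeq2 (adjusted p = 0.0294). Neither gene passed in edgeR or after length correction (0.73 and 0.46). Against controls both rose at 5000 R, by 1.14 ± 0.20 and 0.74 ± 0.14 (adjusted p = 0.0216 each). They were the only 2 genes called in that comparison (0.016% of those tested). At 1000 R their differences from the same controls were 0.26 and 0.18, and no gene was called there (37 genes, 0.297%, at an unadjusted p under 0.05). That share is under the 0.05 that p-values would give without any difference. The test was thus cautious here, and the lack of calls does not show a lack of change.

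The other genes of the higher side were short transcripts of several kinds. RpL32, RpS18 and RpL27 encode ribosomal proteins. RpL32 had 14828, 18751 and 17473 normalized counts at 5000 R, against 12013, 12736 and 10518 at 1000 R (difference 0.53 ± 0.15; limma, adjusted p = 0.42). GstT3 and GstE1 encode glutathione S-transferases, enzymes of detoxification. GstE1 had 499, 700 and 647 at 5000 R, against 363, 331 and 226 at 1000 R (difference 1.02 ± 0.31; adjusted p = 0.42). The cuticle protein gene Cpr67Fb had 1304, 1776 and 2447 at 5000 R, against 913, 1155 and 933 at 1000 R, while controls lay above the 1000 R libraries, at 1424, 1449 and 1325. CG6426 (0.59 ± 0.17) and cl (0.53 ± 0.16), a gene needed for eye pigment, completed the set. In all 10 of these genes the doses did not overlap, as in 6.48% of all genes tested on the higher side. The 10 were chosen by this same contrast, so nothing is read from that count. Library a was the lowest of the 5000 R libraries in each of them. For CG5773, Nfs1, RpL32 and RpS18 the first 5000 R column was also the lowest at days 2 and 20.

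**Figure D2:**
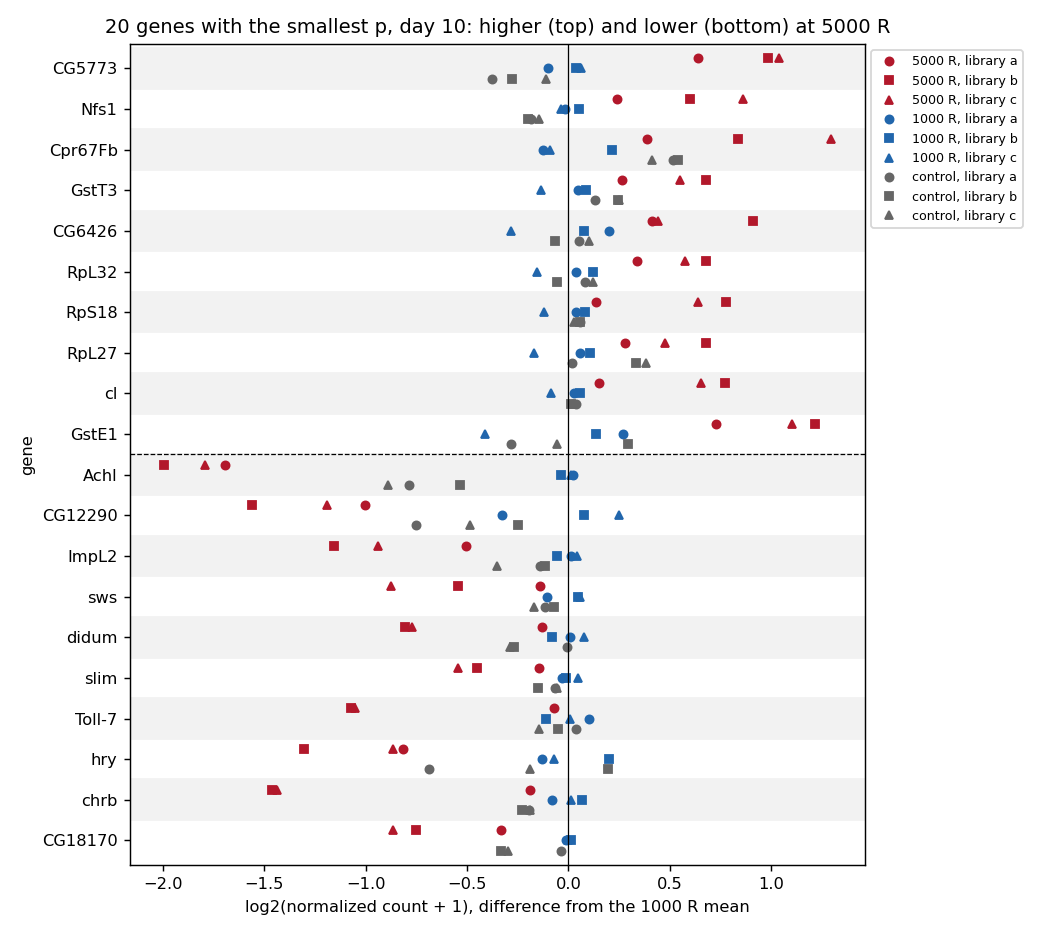
Difference of each library from the 1000 R mean, on the log2(normalized count + 1) scale (horizontal axis), for the 20 genes with the smallest p (vertical axis), with 5000 R, 1000 R and control libraries in rows from top to bottom within each gene and the letter of the library as its symbol. All 3 libraries of Achl at 5000 R lie apart from the rest, while 5000 R library a lies beside the 1000 R libraries for genes such as chrb and Toll-7.

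Over all genes, library a of 5000 R was closer to the 1000 R libraries than to the other libraries of its own dose. The median absolute log2 difference over the genes tested was 0.36 from a to b and 0.35 from a to c. From a to the 3 libraries at 1000 R it was 0.134 to 0.198, close to the range among the 1000 R libraries themselves (0.142 to 0.199). The first columns of the groups lay near each other. Library a of 5000 R was 0.134 from 1000 R library a and 0.155 from control library a, and these last 2 were 0.137 apart. Library a of 1000 R was farther from b and c of its own dose, at 0.199 and 0.179. Control library a was likewise 0.191 and 0.187 from control libraries b and c. Libraries b and c were 0.288 apart, and 0.305 to 0.391 from the 1000 R libraries. Library a lay within the range of the 1000 R libraries for 49.2% of genes, against 23.2% for b and 27.4% for c. When limma weighted the libraries by their fit, library a received 0.485 and libraries b and c 1.02 each. The 1000 R libraries received 1.67, 2.94 and 5.63, and the estimation of the weights stopped before it converged. With all these weights 1557 of 12475 genes were called (434 higher, 1123 lower). That count does not isolate the weight of library a. The cause of these distances was not tested, and the labels record nothing that marks library a.

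Without library a, 198 genes (1.59%) passed, 17 higher (0.136%) and 181 lower (1.45%), with the remaining 2 libraries assumed to vary like the other groups. In 94 of the 198, library a lay within the range of the 1000 R libraries. Of the 29 tested members of the neuronal list, 2 were among the 181. The genes that follow are examples chosen after their values were seen, and they stand for no group. The homeodomain gene pros had 4183, 1185 and 903 normalized counts at 5000 R, against 4521, 3120 and 3271 at 1000 R (limma, adjusted p = 0.0084 without library a). The cyclic AMP phosphodiesterase gene dnc had 3336, 1595 and 1282 at 5000 R, against 3616, 3623 and 3801 at 1000 R (adjusted p = 0.0127). The octopamine receptor gene Octbeta2R had 589, 217 and 188 at 5000 R, against 670, 612 and 584 at 1000 R (adjusted p = 0.0127). In each of these 3 genes library a was at or near the 1000 R level and b and c were well below it. The partner of chrb in TOR inhibition, scyl, had 3260, 2296 and 2018 at 5000 R, against 3518, 4063 and 3509 at 1000 R (adjusted p = 0.0148). Among the 17 higher genes were glob1, which encodes a globin, at 7401, 10463 and 12964 at 5000 R, against 7172, 8282 and 6930 at 1000 R (adjusted p = 0.0149). Lsd-1, a perilipin of lipid droplets, was another, at 5811, 9211 and 10410 at 5000 R, against 5404, 5752 and 5485 at 1000 R (adjusted p = 0.0187).

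These differences ran with transcript length. The 198 genes called without library a had a median longest transcript of 5977 bases, against 1806 for all genes tested. A length was available for 11780 of the genes tested (94.4%), which were divided into 5 groups of nearly equal size. Among the shortest, of 34 to 981 bases, the median log2 difference between the doses was 0.19. It was 0.09, -0.01 and -0.11 in the next groups and -0.28 among the longest, of 3430 to 71382 bases. By library, the medians of the shortest and longest groups against the 1000 R mean were 0.26 and -0.40 in 5000 R library b, 0.30 and -0.39 in c, and 0.12 and 0.00 in a. The 1000 R libraries stayed within ±0.04 and the controls within ±0.07. The slope was therefore a feature of libraries b and c, and weaker in a.

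Counts of genes whose doses did not overlap showed the same slope. Over all genes, 809 (6.48%) were higher in all 3 libraries at 5000 R and 1072 (8.59%) were lower. Among the shortest transcripts 15.3% were higher and 2.38% lower, and among the longest 0.467% were higher and 20.4% lower. With the trend on length removed from each library, 144 genes (1.22% of 11780) had an unadjusted p under 0.05, against 666 (5.65%) of the same genes before. The corrected median difference still ran from -0.14 among the shortest transcripts to -0.02 among the longest, a weaker slope in the opposite direction. Achl, whose longest transcript has 4441 bases, remained the only call (-1.62; limma, adjusted p = 0.00426). All 20 genes with the smallest p had smaller differences after correction. RpS18 went from 0.52 to 0.14, RpL32 from 0.53 to 0.21, sws from -0.52 to -0.24 and didum from -0.57 to -0.25. ImpL2 (-0.87 to -0.84) and hry (-0.99 to -0.97) changed little. The cause of either slope was not tested.

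**Figure D3:**
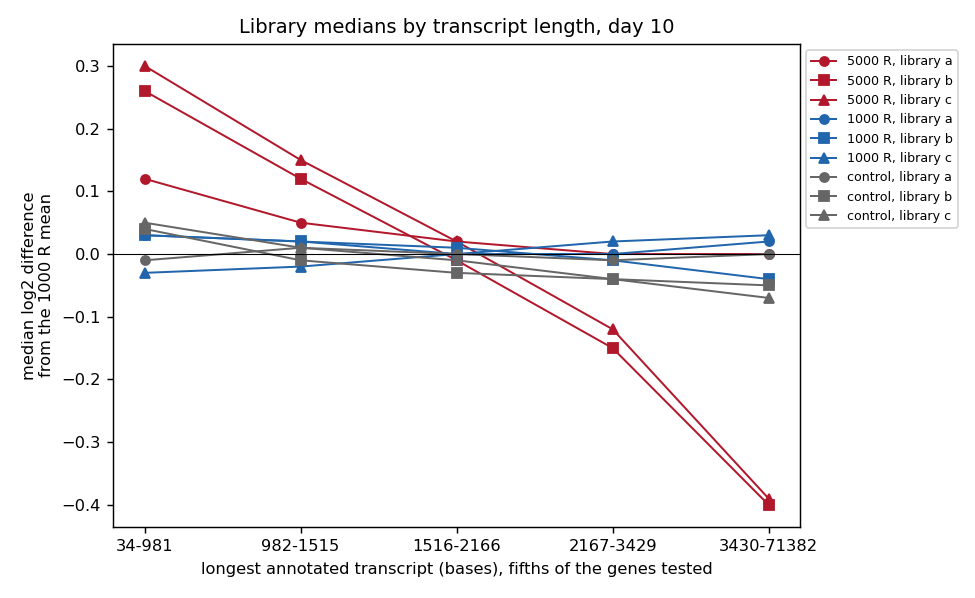
Median log2 difference from the 1000 R mean (vertical axis) in 5 groups of genes ordered by the length of the longest annotated transcript in bases (horizontal axis), with 1 line per library of day 10. The lines of 5000 R libraries b and c run down to -0.40 and -0.39 in the longest group, that of library a runs from 0.12 to 0.00, and those of the 1000 R and control libraries stay within ±0.07.

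In the fit over all libraries none of the 31 gene lists had a member past the threshold, and Achl belongs to none of them. Lists are therefore described by their medians, beside -0.06 for all genes tested, and by how many members did not overlap between doses, beside the 6.48% and 8.59% above. Cytoplasmic ribosomal proteins had a median of 0.34 over 87 members, of which 31 were higher at 5000 R in all libraries and none lower, and 23 had an unadjusted p under 0.05 on the higher side, beside 1.44% of all genes. Their library medians were 0.13, 0.47 and 0.47 at 5000 R. These are short transcripts, with a median of 877 bases, and on length-corrected values the list's median was 0.06. Mitochondrial ribosomal proteins (0.26, 69 members, 14 higher and none lower) and subunits of oxidative phosphorylation (0.19, 84 members, 5 higher and none lower) were likewise short, and stood at -0.05 and -0.08 after length correction. Genes of 34 to 981 bases as a whole stood at -0.14 on these values, below all 3 lists. For the doses at day 2 these 3 lists had medians of 0.32, 0.31 and 0.35, and at day 20 of 0.30, 0.33 and 0.37.

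Neuronal genes stood at the other end, with a median of -0.37 over 29 members. On the lower side 8 of them had an unadjusted p under 0.05, beside 4.57% of all genes. Their median transcript length was 5607 bases, and the length-corrected median was -0.07. The library medians were 0.16, -0.57 and -0.63 at 5000 R, so library a was on the other side of the 1000 R mean. The first column was also the highest at 1000 R (0.24, -0.16 and -0.04) and in controls (0.19, 0.01 and -0.08). The tyrosine hydroxylase gene ple, which makes the dopamine precursor, was the member whose doses did not overlap, at 1044, 957 and 907 normalized counts at 5000 R, against 1359, 1448 and 1810 at 1000 R (-0.66 ± 0.18; limma, adjusted p = 0.404). Rdl, a GABA receptor subunit, had 980, 291 and 256 at 5000 R, against 1073, 704 and 828 at 1000 R. The neuronal RNA-binding protein gene elav had 609, 302 and 256 at 5000 R, against 563, 542 and 495 at 1000 R, with library a highest of all 6.

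**Figure D4:**
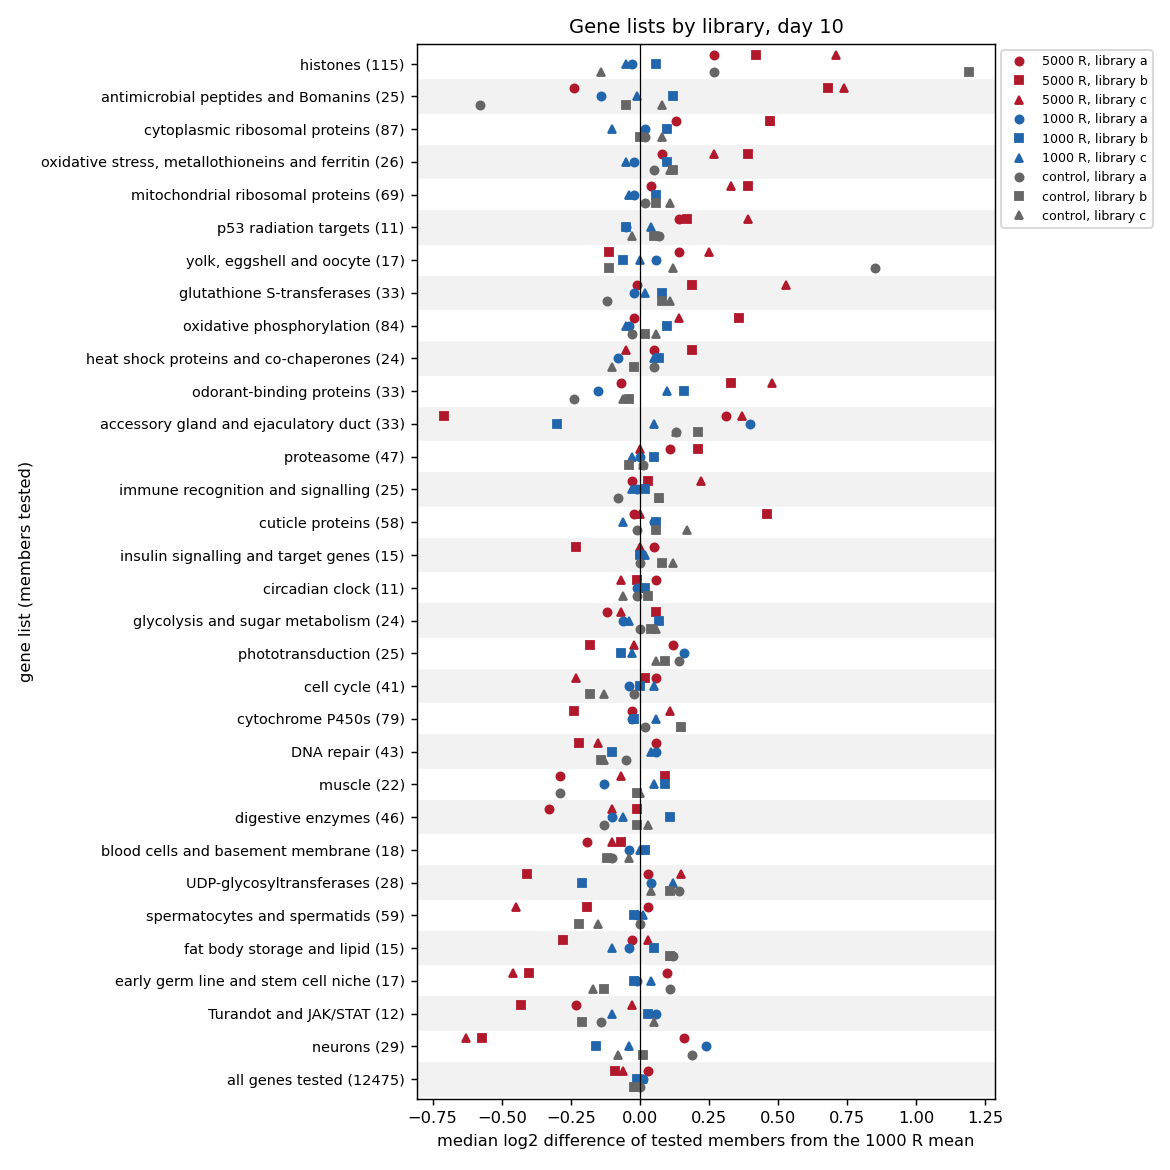
Median log2 difference of the tested members of each gene list from the 1000 R mean (horizontal axis) in the 5000 R, 1000 R and control libraries of day 10, drawn in that order from top to bottom within each list, and over all genes tested at the bottom. For the antimicrobial peptide and neuronal lists, libraries b and c of 5000 R lie on one side and library a on the other side of the 1000 R mean. At 1000 R and in controls, library a is likewise the lowest for antimicrobial peptides and the highest for neuronal genes.

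No gene of the radiation response passed between these doses. Of the 13 listed p53 targets 11 were tested (rpr and skl were under the minimum mean), with a median of 0.25, and 3 of them were higher at 5000 R in all libraries. One of the 3 was egr, the fly tumour necrosis factor, at 477, 511 and 506 normalized counts at 5000 R, against 380, 398 and 339 at 1000 R (0.42 ± 0.19; limma, adjusted p = 0.749). Gadd45, a stress gene, had 434, 654 and 552 at 5000 R, against 370, 409 and 407 at 1000 R (0.45 ± 0.21; adjusted p = 0.788). RnrL, the large subunit of ribonucleotide reductase, had 159, 173 and 270 at 5000 R, against 131, 133 and 149 at 1000 R (0.50 ± 0.85; adjusted p = 1). The doses lay close together for these 3 genes. Every SE of the main fit, those of RnrL and Ku80 among them, pools the spread over all 18 groups of the series. The death gene hid was at 194, 96.9 and 89.2 at 5000 R, against 165, 192 and 209 at 1000 R, with library a again within the 1000 R range (-0.66 ± 0.31; adjusted p = 0.804). The DNA end-binding genes Irbp (0.25 ± 0.33) and Ku80 (0.10 ± 0.88), the nuclease gene mre11 (0.10 ± 0.26), p53 itself (0.29 ± 0.27), Corp (0.25 ± 0.32) and the transcription factor gene Xrp1 (-0.03 ± 0.12) had overlapping groups. DNA repair genes had a median of -0.09 over 43 members and cell cycle genes -0.05 over 41.

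In the male germ line no listed gene passed. Mst98Ca, which encodes a sperm tail protein, had 17284, 17167 and 13595 normalized counts at 5000 R, against 16207, 19750 and 17714 at 1000 R (-0.16 ± 0.21; limma, adjusted p = 1), and these doses overlapped. Mst87F, another sperm tail gene, had 4812, 5781 and 5768 at 5000 R, against 6210, 6964 and 6222 at 1000 R (-0.25 ± 0.23; adjusted p = 1), without overlap. The list of spermatocyte and spermatid genes had a median of -0.24 over 59 members, 7 of them lower and 1 higher in all libraries, with library medians of 0.03, -0.19 and -0.45. Unlike the ribosomal, oxidative phosphorylation and neuronal lists, it did not move toward 0 with length correction. Its corrected median was -0.34, beside -0.06 for all genes and -0.09 for genes of 982 to 1515 bases. The median transcript length of the list is 1268 bases. The corrected difference of Mst87F, of 515 bases, was -0.66, beside -0.14 for genes of 34 to 981 bases. The list of early germ line and niche genes had a median of -0.25 over 17 members, and -0.11 after length correction. Its leading member mei-P26, which restrains proliferation as germ cells differentiate, had 3389, 1855 and 1230 at 5000 R, against 3269, 3584 and 3549 at 1000 R (-0.81 ± 0.22; adjusted p = 0.404). Without library a the difference was -1.20 (adjusted p = 0.00182), and with length correction over all libraries it was -0.13, the longest mei-P26 transcript having 23041 bases.

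Lists of immune, stress and detoxification genes had medians on both sides of that of all genes. Turandot and JAK/STAT genes had a median of -0.25 over 12 members, cytochrome P450s -0.07 over 79 and immune recognition and signalling genes 0.06 over 25, beside -0.06 for all genes. Antimicrobial peptides and Bomanins, short secreted peptides induced by infection, had a median of 0.39 over 25 tested members, with 5 higher and none lower in all libraries. Their library medians were -0.24, 0.68 and 0.74. The first column was also the lowest at 1000 R (-0.14, 0.12 and -0.01) and in controls (-0.58, -0.05 and 0.08). On length-corrected values the list's median was 0.04, beside -0.14 for genes of 34 to 981 bases. BomBc2 had 5137, 9176 and 7385 normalized counts at 5000 R, against 5181, 5370 and 4058 at 1000 R (0.54 ± 0.20; limma, adjusted p = 0.602). Genes of oxidative stress, metal binding and iron storage had a median of 0.26 over 26 members, 11 of them higher and 1 lower in all libraries, and 0.12 after length correction. MtnB, a metallothionein that binds copper and other metals, had 38.4, 82.9 and 108 at 5000 R, against 10.7, 22.4 and 24.4 at 1000 R (1.90 ± 0.65; adjusted p = 0.534). Controls for MtnB, at 34.4, 44.8 and 56.4, lay above the 1000 R libraries and overlapped those at 5000 R. Glutathione S-transferases had a median of 0.20 over 33 members, with 5 higher and 1 lower, and -0.05 after length correction.

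Clock genes, of which Achl is a reported output, had a median of -0.03 over 11 members. The core clock gene tim had 5125, 5565 and 4960 normalized counts at 5000 R, against 4366, 4484 and 4588 at 1000 R (0.22 ± 0.11; limma, adjusted p = 0.812). Clk, the activator of the clock, had 1540, 956 and 975 at 5000 R, against 1843, 1762 and 1796 at 1000 R (-0.67 ± 0.80; adjusted p = 1). As for RnrL, the SE of Clk pools the spread over all 18 groups of the series and is not that of the libraries listed. Groups did not overlap for tim or Clk, and per had overlapping groups, at 1131, 1002 and 852 at 5000 R, against 959, 885 and 836 at 1000 R. The hour of collection is not given in the sources used here.

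Set against days 2 and 20, no gene had a dose difference at day 10 that departed past the threshold from the difference at either other day. At an unadjusted p under 0.05 there were 213 such genes (1.71%) for day 2 and 71 (0.569%) for day 20, and edgeR and DESeq2 called none for either. Both shares are under the 0.05 that p-values would give without any difference. The lack of calls therefore does not show that the days are alike. The contrast of both doses by itself had 7 calls at day 2 (0.0561%), 1 higher (0.00802%) and 6 lower (0.0481%), Achl and CG12290 among them. It had 0 calls at day 20, where 765 genes (6.13%) had an unadjusted p under 0.05.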

How the data were processed

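The deposited table holds normalized counts, a signal per FlyBase gene and library, for 15222 genes and 53 libraries. Per the submitters' processing notes the authors used TopHat2 2.0, DESeq and genome build dm3. No source used here names the counting program or the annotation release. Each deposited value was a whole multiple, within 0.1, of 1 step per library in 100% of values, so whole reads could be recovered: 15.4 to 46.2 M per library. Depth limits the precision of low genes.

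Column headings give dose and day only. The letters a, b and c name the libraries of a group by the order of their columns, with no link to the numbers in the sample titles. Genes with a mean of at least 10 over all columns were tested (12475) on log2(value + 1), a scale that understates changes of low genes. limma 3.58.1 (R 4.3.3, eBayes with trend) fitted 18 group means over 53 libraries, with Benjamini-Hochberg adjustment per contrast and a threshold of 0.05. Log2 differences are 5000 R minus 1000 R, with standard errors. edgeR 4.0.16 and DESeq2 1.42.0 on the recovered reads, other scalings, filters, library weights and leaving out libraries were alternatives. The length-corrected values were added after the data were seen.

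Symbols (14347 identifiers), chromosome arms and transcript lengths come from an annotation of another build, so no coordinates are given. The genes named are the 10 with the smallest p per direction (mean of at least 50 in the 6 libraries), 2 per list and 10 radiation genes. Others were chosen after their values were seen, among them pros, dnc, Octbeta2R, scyl, glob1, Clk, per, elav, Mst98Ca, Mst87F, Yp1, osk, ninaE and lncRNA:roX1. The members compared and the 31 lists were chosen with earlier results of these data known. In those lists 45 names matched no row. The pipeline was tested on simulated data.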

Additional observations from a re-analysis of the deposited data

How the results depend on the processing

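Of the 83 genes named by rule, Achl passed in every setting that gave it an adjusted p, with log2 differences from -1.75 to -1.90 when 1 library was left out (limma, adjusted p from 0.00127 to 0.0132) and -2.11 under quantile normalization. With only the 6 libraries its adjusted p was 0.0405. The count of 1 call became 2 with day 10 libraries only, 5 without the libraries that stand apart, 15 in DESeq2, 1557 with library weights (434 higher, 1123 lower), and 1 to 198 when 1 library was left out. The second call was CG12290 without 1000 R library a and CG12506 without 5000 R library c. The weights were 0.485, 1.02 and 1.02 for 5000 R libraries a, b and c and 1.67, 2.94 and 5.63 for those of 1000 R; their estimation stopped before it converged. Besides Achl, 57 of the 83 named genes passed with these weights, 22 without 5000 R library a and 7 in DESeq2. Over all 12475 genes tested the calls were 1557, 198 (1.59%) and 15, and DESeq2 gave an adjusted p to only 1107 of them. Most of the named genes were chosen by their p in this same contrast, so nothing is read from these counts. Calls on the difference between day 10 and day 2 numbered 8 with weights and 1 without the libraries that stand apart, and those for day 20 numbered 7 with weights; the other settings gave 0. Signs turned with length correction for PolQ (0.04), EbpIII (-0.06), LanA (0.01), ND-B14.7 (-0.07), gig (0.05) and Xrp1 (0.13), for Xrp1 also with median-of-ratios factors (0.02) and in edgeR (0.01), and for mre11 when single libraries were left out (-0.05 without 1000 R library a, up to 0.28 without 1000 R library c). The cause was not tested. No paired analysis was possible because the columns carry no replicate number.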

Other observations

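Accessory gland and ejaculatory duct genes, which encode seminal fluid proteins, had library medians of 0.31, -0.71 and 0.37 at 5000 R and 0.40, -0.30 and 0.05 at 1000 R, relative to the 1000 R mean. The lysozyme gene LysX had 215, 523 and 203 normalized counts at 5000 R, against 36.6, 97.2 and 128 at 1000 R, and 29.4, 57.7 and 41.1 in controls (1.86 ± 0.86; limma, adjusted p = 0.786). The giant muscle protein gene sls had 121860, 31567 and 45065 at 5000 R, against 181111, 123311 and 199159 at 1000 R (-1.56 ± 0.65; adjusted p = 0.733). Its longest transcript has 56489 bases, and its length-corrected difference was -0.63. The calcium pump gene SERCA had 39249, 34827 and 19316 at 5000 R, against 46305, 47067 and 49124 at 1000 R (-0.67 ± 0.21; adjusted p = 0.433), and -0.36 after length correction. These were the 2 of 22 tested muscle genes whose doses did not overlap, both lower. That is near the 8.59% of all genes that were lower without overlap, so nothing about muscle is read from it. The muscle list had a median of -0.13, or -0.04 without 5000 R library a. Histone genes had a median of 0.44, with library medians of 0.27, 0.42 and 0.71 at 5000 R and -0.03, 0.06 and -0.05 at 1000 R, and 34 members higher and 1 lower without overlap, while control library b had a median of 1.19. Many of these histone rows are near-identical copies whose reads cannot be assigned with certainty.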
